A study of Mus musculus with 24 samples.

Results

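Complement genes were examined in the epididymal white adipose tissue (eWAT) of mice fed chow or a high-fat diet (HFD). The genes are C1qa, C1qb, C1qc, C4b, C3, Cfb and C3ar1, chosen by gene symbol, and all 7 were found among the 16730 genes of the count table and passed the filter on low counts. Bulk RNA was sequenced from the 3′ end of transcripts (QuantSeq) in 24 male mice, 6 in each of 4 groups. On each of the diets there were mice labelled Lama4 fl/fl, the controls, and mice labelled Lama4 AKO, the adipocyte knockout. All mice carried floxed Lama4, the gene of the laminin α4 chain of basement membranes, and the Lama4 AKO mice also carried Cre driven by the adiponectin promoter, which is active in adipocytes, so other cells of the tissue keep the gene. The HFD gave 45% of its energy as fat, and tissue was taken after 20 weeks on either diet, at 24 to 26 weeks of age. By the paper's figure legends, chow was given from weaning to an age of 24 weeks and HFD from 6 to 26 weeks. Diet and age therefore cannot be told apart in comparisons of HFD with chow. Values are CPM, each library's counts scaled to a common total with TMM factors, and the genes were fitted together with all 15020 genes that passed the filter.

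Complement is a chain of plasma and tissue proteins that tag and lyse targets. C1q, a hexamer of trimers of the C1qa, C1qb and C1qc chains, starts the classical pathway and leads to cleavage of C4. In the alternative pathway, factor D cleaves factor B (Cfb), which gives the catalytic subunit of that pathway's convertase. All routes meet at C3, whose released fragment C3a is bound by the receptor C3ar1. Most complement in plasma comes from the liver, but C1q is made mainly by macrophages, and adipocytes are a major source of factor D, also called adipsin.

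The C1q genes are neighbours on the reverse strand of chromosome 4 of GRCm38, in the order C1qb (136880129 to 136886187), C1qc (136889804 to 136893065) and C1qa (136895917 to 136898803), within 18675 bases. The gaps between them are 3616 and 2851 bases. C4b (34728380 to 34743882), Cfb (34856374 to 34862518) and C3 (57203970 to 57228136) lie on the reverse strand of chromosome 17, and C3ar1 (122847138 to 122856161) on that of chromosome 6. These are whole-gene spans, exons and introns together. C4b has a near-identical copy, C4a, which held 272 counts over all libraries against 98759 for C4b, and reads that match both could be split by the counting. Cfb shares its span with the gene model Gm20547 on the same strand, so reads there cannot be told apart.

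Levels of C1qb, C1qc and C3ar1 went up and down together between mice outside the HFD-fed Lama4 AKO group, as described further on. Upstream sequences of these genes are shown. They run 5′ to 3′ on the strand of the gene and end at the start of the gene in RefSeq on GRCm38.p6 or, for C1qc and C3ar1, at the outermost start in GENCODE, and capitals mark the letters GAGGAA, the core of sites for the myeloid factor PU.1, on either strand. The C1qb window is chr4:136886201-136886450, the C1qc window chr4:136893066-136893164 and the C3ar1 window chr6:122856162-122856407, all on the reverse strand.
C1qb: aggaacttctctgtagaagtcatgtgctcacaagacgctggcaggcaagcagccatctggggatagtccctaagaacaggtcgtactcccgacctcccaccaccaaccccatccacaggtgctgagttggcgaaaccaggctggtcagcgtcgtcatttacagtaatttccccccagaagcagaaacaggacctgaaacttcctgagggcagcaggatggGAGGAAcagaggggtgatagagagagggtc
C1qc: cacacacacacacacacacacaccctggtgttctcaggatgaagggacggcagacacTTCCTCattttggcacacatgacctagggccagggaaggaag
C3ar1: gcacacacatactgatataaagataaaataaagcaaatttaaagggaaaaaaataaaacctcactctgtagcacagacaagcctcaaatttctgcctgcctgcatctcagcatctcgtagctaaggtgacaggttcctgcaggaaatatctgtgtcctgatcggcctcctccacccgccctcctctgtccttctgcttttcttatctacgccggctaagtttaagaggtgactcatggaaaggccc
GAGGAA lies at -30 to -25 from the RefSeq start of C1qb, and its reverse complement at -193 to -188 from that of C1qc. It was not in the 300 bases searched for C3ar1 or C3. These letters were in 28.3% of the 32851 mouse promoter windows of that length. GAAA followed after any 2 bases by GAAA again, the core of interferon response elements, was in 3.44% of windows on either strand, GGGNNTTCC, a core of NF-kB sites, in 5.82%, and neither was in the C1qb, C1qc, C3ar1 or C3 window. C1qa, C4b and Cfb were not searched. The matches are descriptions of letters and not of binding.

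Library totals were 5579590 to 18764516 counts, with 9156492 to 11640690 in the HFD-fed Lama4 AKO group. Libraries stood apart within groups. The first principal component held 45.8% of the variance of log2 CPM, and HFD-fed Lama4 fl/fl replicates 1, 2 and 5 had scores of 48.2 to 73.5 while replicates 3, 4 and 6 had -76.1 to -9.88. An earlier reading of the study's plots inferred that 5 libraries were set aside there as outliers: chow-fed Lama4 fl/fl replicate 3, chow-fed Lama4 AKO replicate 5 and HFD-fed Lama4 fl/fl replicates 3, 4 and 6. The labels do not mark them, so all 24 libraries are the main set, and values for the other 19 are given beside them. Because those 5 stand out by their expression, p-values among the 19 are not independent of that choice. Lama4 itself ranged from 32.5 to 193.6 CPM over all libraries. Its log2 difference between Lama4 AKO and Lama4 fl/fl was 0.11 (SE 0.343, adjusted p = 0.98) on chow and -0.69 (SE 0.346, adjusted p = 0.347) on HFD, and in the 19 libraries it was 0.06 (SE 0.28) and 0.14 (SE 0.317). The floxed exon lies far from the 3′ end that was read, and whether its deletion lowers the count there was not tested. The count therefore does not check the deletion. By quantitative PCR the paper reported a knockdown of Lama4 in eWAT of chow-fed Lama4 AKO mice, which the counts on chow do not show. Genotypes are therefore those of the labels.

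None of the 7 genes met the call criteria in any comparison with all libraries. A call needed a 1.5-fold change or more, a nominal edgeR p no higher than 0.001 and, in the group with more, an average of 2 CPM or more. Of all genes tested, 0.173% met them for HFD against chow in Lama4 fl/fl mice, 4.12% for HFD against chow in Lama4 AKO mice, 0.113% for genotype on chow, 0.173% for genotype on HFD, 0.386% for the interaction of diet and genotype and 2.25% for the diet averaged over genotypes. At an adjusted p of at most 0.05 with no fold criterion, C4b was the one member to pass, and it did so in the diet average. In the same order of comparisons, 0%, 22.1%, 0%, 0%, 0.00666% and 12.4% of all genes passed. No member had groups that did not overlap. The share of all genes with groups that did not overlap was 0.213% for diet in Lama4 fl/fl, 6.86% for diet in Lama4 AKO, 0.26% for genotype on chow and 0.533% for genotype on HFD. The plot of CPM by mouse shows the spread that these tests face.

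**Figure D1:**
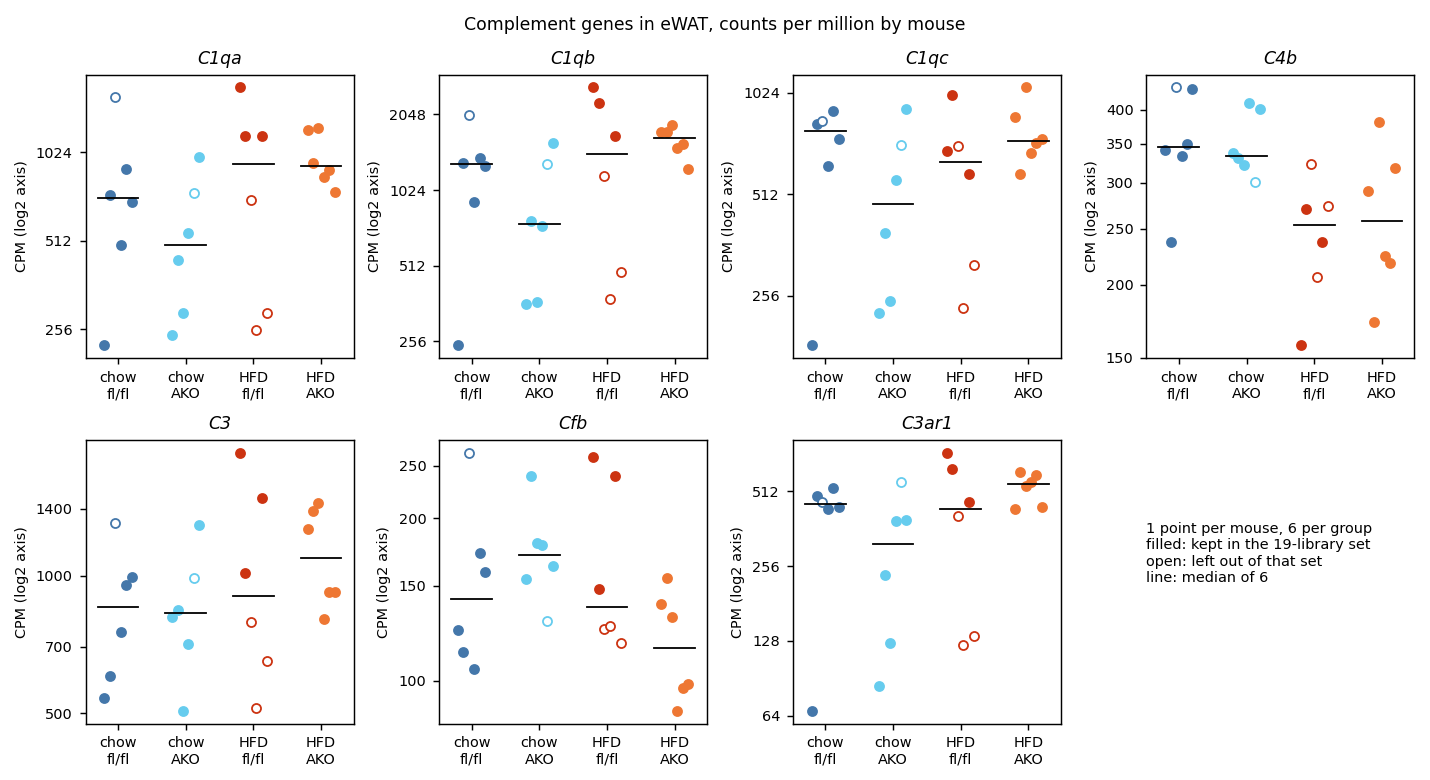
CPM of each complement gene (y axis, log2 scale) by group (x axis), 1 point per mouse with the median of 6 as a line and open points for the 5 libraries left out of the 19-library set. The C1q genes and C3ar1 are spread widely in 3 groups, in HFD-fed Lama4 fl/fl mice through the open points, and lie close together in HFD-fed Lama4 AKO mice, while C4b has lower medians on HFD, in groups that overlap.

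C1qb, the B chain of C1q, was 246.6 to 2040.3 CPM in chow-fed Lama4 fl/fl mice with a median of 1299.2, and 359.8 to 1579.8 with a median of 753.2 in chow-fed Lama4 AKO mice. On HFD it was 376.2 to 2620.7 with a median of 1421 in Lama4 fl/fl mice, and 1237.3 to 1861.2 with a median of 1650.7 in Lama4 AKO mice. All HFD-fed Lama4 AKO mice lay inside the range of HFD-fed Lama4 fl/fl mice, whose replicates 4 and 6 had the lowest levels, 376.2 and 481.9. In Lama4 AKO mice the log2 difference of HFD against chow was 0.91 (SE 0.454, adjusted p = 0.137), and 4 of the 6 chow-fed mice were below every HFD-fed one. In Lama4 fl/fl mice it was 0.23 (SE 0.451, adjusted p = 0.901), and the groups overlapped over most of their range. The interaction was 0.68 (SE 0.638, adjusted p = 0.578). In the 19 libraries C1qb differed by 1.04 (SE 0.447, adjusted p = 0.0849) in Lama4 fl/fl and 1.07 in Lama4 AKO mice, with an interaction of 0.03 (SE 0.592).

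C1qa, the A chain, was 225.4 to 1579.2 CPM with a median of 712.6 in chow-fed Lama4 fl/fl mice and 245.6 to 988.9 with a median of 493.1 in chow-fed Lama4 AKO mice. On HFD it was 253.9 to 1699.1 with a median of 933.8 in Lama4 fl/fl mice and 748.4 to 1238.6 with a median of 916.8 in Lama4 AKO mice. The groups overlapped in each comparison, and their medians on HFD were close. HFD differed from chow by 0.85 on the log2 scale in Lama4 AKO mice (SE 0.436, adjusted p = 0.147) and by 0.16 in Lama4 fl/fl mice (SE 0.432, adjusted p = 0.926). C1qc, the third chain, was 182.3 to 907.2 CPM in chow-fed Lama4 fl/fl mice, 227.6 to 915.2 in chow-fed Lama4 AKO mice, 235.2 to 1008.2 in HFD-fed Lama4 fl/fl mice and 586.8 to 1063.1 in HFD-fed Lama4 AKO mice, with medians of 788.5, 478.4, 638.1 and 737.3. Its diet difference was -0.25 (SE 0.37, adjusted p = 0.866) in Lama4 fl/fl mice and 0.61 (SE 0.372, adjusted p = 0.22) in Lama4 AKO mice, which overlapped on both diets.

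The ratio of C1qc to the other chains was not constant between mice. The log2 ratio of C1qc to C1qb was -1.27 to -0.44 in chow-fed Lama4 fl/fl mice, -0.97 to -0.39 in chow-fed Lama4 AKO mice, -1.93 to -0.6 in HFD-fed Lama4 fl/fl mice and -1.56 to -0.72 in HFD-fed Lama4 AKO mice. The lowest ratio was in HFD-fed Lama4 fl/fl replicate 1, where C1qb was 2620.7 CPM and C1qc 688. The log2 ratio of C1qb to C1qa was 0.13 to 0.89, 0.34 to 0.8, 0.53 to 0.96 and 0.51 to 0.88 in the same order of groups. These ranges were narrower, but in chow-fed Lama4 fl/fl mice its SD was 0.316 against 0.293 for C1qc to C1qb. In chow-fed Lama4 AKO mice alone C1qc to C1qa varied less than C1qb to C1qa, with SDs of 0.0954 and 0.194. Ratios between 3′ counts of different genes also depend on how well each 3′ end is captured, so they are compared here only between mice.

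C3ar1, the C3a receptor, was the most variable member, with a 10.9-fold range over all mice. It was 67 to 528.7 CPM with a median of 454.1 in chow-fed Lama4 fl/fl mice and 84.1 to 556.4 with a median of 312.9 in chow-fed Lama4 AKO mice. It was 123 to 732.6 with a median of 436.4 in HFD-fed Lama4 fl/fl mice and 436 to 614.4 with a median of 547.5 in HFD-fed Lama4 AKO mice. In chow-fed Lama4 fl/fl mice 5 were at 433.1 or more and replicate 1 alone was at 67. The log2 diet difference was 0.83 in Lama4 AKO mice (SE 0.462, adjusted p = 0.179) and 0 in Lama4 fl/fl mice (SE 0.459, adjusted p = 0.998), and was -0.22 in Lama4 fl/fl mice without that replicate.

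The SD of log2 CPM over 6 HFD-fed Lama4 AKO mice was 0.3 for C1qa, 0.208 for C1qb, 0.311 for C1qc and 0.199 for C3ar1. Over 6 HFD-fed Lama4 fl/fl mice it was 1.12, 1.15, 0.771 and 1.1, and over the 3 of them kept in the 19-library set it was 0.341, 0.331, 0.371 and 0.339. The difference in spread was not tested. Summed CPM of 8 macrophage markers moved with it, at 6020.3 to 11283.8 in HFD-fed Lama4 AKO mice and 2008.7 to 11198.2 in HFD-fed Lama4 fl/fl mice, and the part of the marker genes' source cells in these results was not tested.

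C4b, a gene of the component C4 that the classical pathway cleaves, was 236.7 to 437.3 CPM with a median of 345.1 in chow-fed Lama4 fl/fl mice and 300.6 to 411.7 with a median of 333.7 in chow-fed Lama4 AKO mice. On HFD it was 157.4 to 322.5 with a median of 253.9 in Lama4 fl/fl mice and 172.7 to 380.8 with a median of 257.4 in Lama4 AKO mice. Both HFD groups had lower medians than both chow groups, and each overlapped its chow group. Averaged over genotypes, C4b fell by 0.48 on the log2 scale on HFD (SE 0.136, edgeR adjusted p = 0.033), a 1.39-fold difference that misses the fold criterion. The difference was -0.56 in Lama4 fl/fl mice (SE 0.192, adjusted p = 0.448) and -0.39 in Lama4 AKO mice (SE 0.192, adjusted p = 0.134). The interaction was 0.18 (SE 0.271, adjusted p = 0.744). Leaving out each library in turn gave -0.54 to -0.42 for the diet average, with adjusted p of 0.0202 to 0.0609, and with the 19 libraries it was -0.55 (SE 0.157, adjusted p = 0.00711), where 51.9% of all genes passed.

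C3, the central component, was 539.3 to 1305.1 CPM with a median of 853.8 in chow-fed Lama4 fl/fl mice and 506.7 to 1293.8 with a median of 827.7 in chow-fed Lama4 AKO mice. It was 513.7 to 1857.1 with a median of 901.7 in HFD-fed Lama4 fl/fl mice and 805 to 1443.6 with a median of 1092.8 in HFD-fed Lama4 AKO mice. The 4 groups overlapped. Differences of HFD against chow were 0.27 (SE 0.285, adjusted p = 0.8) in Lama4 fl/fl mice and 0.38 (SE 0.286, adjusted p = 0.316) in Lama4 AKO mice.

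Cfb, the catalytic subunit of the alternative convertase, was 105.3 to 264 CPM with a median of 141.5 in chow-fed Lama4 fl/fl mice and 129.1 to 239.6 with a median of 170.6 in chow-fed Lama4 AKO mice. On HFD it was 117.3 to 259 with a median of 136.9 in Lama4 fl/fl mice and 88.1 to 155.2 with a median of 115.1 in Lama4 AKO mice. The 3 lowest of all 24 mice, at 88.1, 97 and 98.6, were HFD-fed Lama4 AKO replicates 4, 5 and 6, yet the group overlapped every other group. The log2 difference was -0.56 for HFD in Lama4 AKO mice (SE 0.234, adjusted p = 0.082) and 0.09 in Lama4 fl/fl mice (SE 0.233, adjusted p = 0.924). It was -0.5 for Lama4 AKO against Lama4 fl/fl on HFD (SE 0.234, adjusted p = 0.33), and the interaction was -0.65 (SE 0.33, adjusted p = 0.338).

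**Figure D2:**
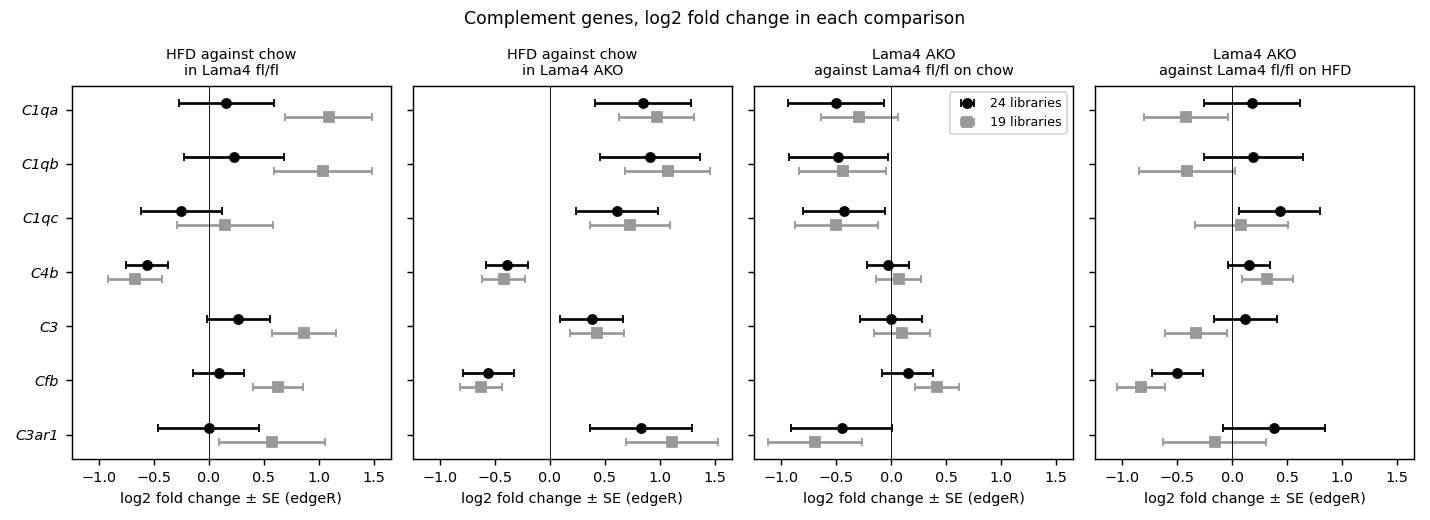
Log2 fold change with its SE from edgeR (x axis) for each complement gene (y axis) in 4 comparisons, with all 24 libraries in black and the 19-library set in grey. Differences of HFD against chow in Lama4 fl/fl mice move to higher values in the 19-library set for the C1q genes, C3, Cfb and C3ar1, and differences between genotypes on HFD move to lower ones.

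Most diet differences within a genotype were larger in the 19-library set, but C1qc in Lama4 fl/fl mice went from -0.25 to 0.15. In Lama4 fl/fl mice, where 3 HFD-fed mice remain, C1qa differed by 1.09 (SE 0.396, adjusted p = 0.0448), C3 by 0.87 (SE 0.29, adjusted p = 0.0317), Cfb by 0.63 (SE 0.226, adjusted p = 0.0436) and C4b by -0.67 (SE 0.244, adjusted p = 0.0452). These 4 of 7 compare with 29% of all genes past an adjusted p of 0.05. In Lama4 AKO mice, C1qa at 0.97 (SE 0.341, adjusted p = 0.0305), C1qb at 1.07 (SE 0.386, adjusted p = 0.0331), C3ar1 at 1.11 (SE 0.415, adjusted p = 0.039) and Cfb at -0.63 (SE 0.19, adjusted p = 0.0142) passed, against 40.3% of all genes. None of them met the call criteria within a genotype, which 11.8% of genes did in Lama4 fl/fl and 15.7% in Lama4 AKO mice. Between genotypes, 0.209% of genes met them on chow and 0.565% on HFD, with 0% at the adjusted p in either and in the interaction, and no member. C1qa met them in the diet average at 1.03 (SE 0.261) with a nominal edgeR p of 0.000859, as did 21.4% of all genes.

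Cfb was the member whose diet difference had opposite signs in the genotypes in the 19-library set, 0.63 in Lama4 fl/fl and -0.63 in Lama4 AKO mice. The interaction was -1.26 (SE 0.295) and met the call criteria with a nominal edgeR p of 0.000422, as did 0.68% of all genes, but its adjusted p was 0.118. With all libraries the difference in Lama4 fl/fl mice was 0.09, and the interaction ranged from -0.85 to -0.48 as each library was left out in turn. Cfb in the 3 HFD-fed Lama4 fl/fl libraries set aside was 117.3 to 126.2 CPM, and in the 3 kept it was 147.6 to 259.

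The ratio of Cfb to C3 was looked at after the values were seen, and so it is given as a description with no test. The log2 ratio was -3.46 to -3.15 in HFD-fed Lama4 AKO mice. It was -2.84 to -2.02 in HFD-fed Lama4 fl/fl mice, -2.99 to -1.5 in chow-fed Lama4 AKO mice and -2.84 to -2.12 in chow-fed Lama4 fl/fl mice, so the 6 HFD-fed Lama4 AKO mice lay below the other 18. The same ratio to C3 was taken for all 15019 genes other than C3. HFD-fed Lama4 AKO mice lay outside the range of all other mice in 0.00666% of them, which is Cfb alone. Cfb, C3 and the group were picked from these values, and no other denominator or group was compared. The share therefore does not measure how rare such a separation is. The level of Cfb itself overlapped between these groups, and C3 in HFD-fed Lama4 AKO mice was 805 to 1443.6 CPM.

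**Figure D3:**
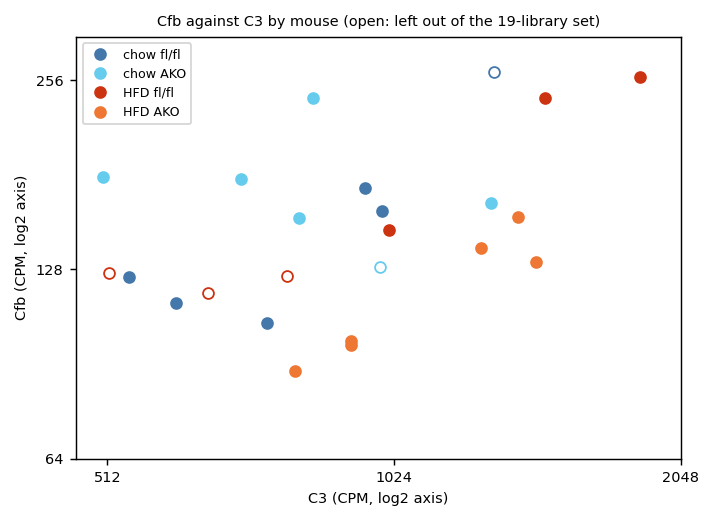
Cfb (y axis) against C3 (x axis) in CPM on log2 scales, 1 point per mouse coloured by group, with open points for the libraries left out of the 19-library set. The 6 HFD-fed Lama4 AKO mice have less Cfb for their C3 than any other mouse.

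Between mice of the same group, members varied together. Log2 CPM was centred on the mean of each group, and the 21 pairs of members were compared across 24 libraries, with p from 100000 permutations within groups adjusted over the 21 pairs. An adjusted p of at most 0.05 was found for 12 pairs, or 57.1%, the lowest of them with r = 0.562. Of all pairs of genes tested, 18% had an r at least that far from 0 and 9.28% a positive one. The first principal component alone holds 45.8% of the variance, and the count is not read as particular to complement genes. C1qa and C1qb had the highest correlation (Pearson r = 0.973, adjusted p = 5.25e-05, Spearman rho = 0.969, adjusted p = 0.00021), and r was 0.965 without the 2 libraries farthest from the median of C1qa. C1qb and C3ar1 had r = 0.94 (adjusted p = 5.25e-05, rho = 0.837, adjusted p = 0.00021) and 0.899 without the 2 farthest. These p-values rest on the smallest p that the permutations can give, 1e-05. C3 followed C1qa with r = 0.842 (adjusted p = 7e-05, rho = 0.809, adjusted p = 0.00024), and 0.797 without the 2 farthest.

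C4b stood apart over all groups together. Its r with the other members was -0.0741 to 0.226, and none of its 6 pairs passed. Within single groups r was less uniform. With C3 it was 0.729 in chow-fed and -0.514 in HFD-fed Lama4 fl/fl mice, and with Cfb 0.679 and -0.699. With C1qc it was 0.916 in HFD-fed Lama4 AKO mice and 0.00741 to 0.46 in the other groups. Cfb was closest to C3 (r = 0.706, adjusted p = 0.00208, rho = 0.67, adjusted p = 0.00324, and r = 0.64 without the 2 farthest). Within groups r of C3 and Cfb was 0.856 in chow-fed Lama4 fl/fl, 0.93 in HFD-fed Lama4 fl/fl and 0.952 in HFD-fed Lama4 AKO mice, but -0.247 in chow-fed Lama4 AKO mice. C3ar1 followed C1qb in 3 groups with r of 0.907 to 0.992, and in HFD-fed Lama4 AKO mice, where both genes varied little, r was 0.309. In that group r was -0.428 for C1qc and C3ar1 and 0.396 for C1qb and C1qc. Of the pairs, 9 passed with the 19 libraries.

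**Figure D4:**
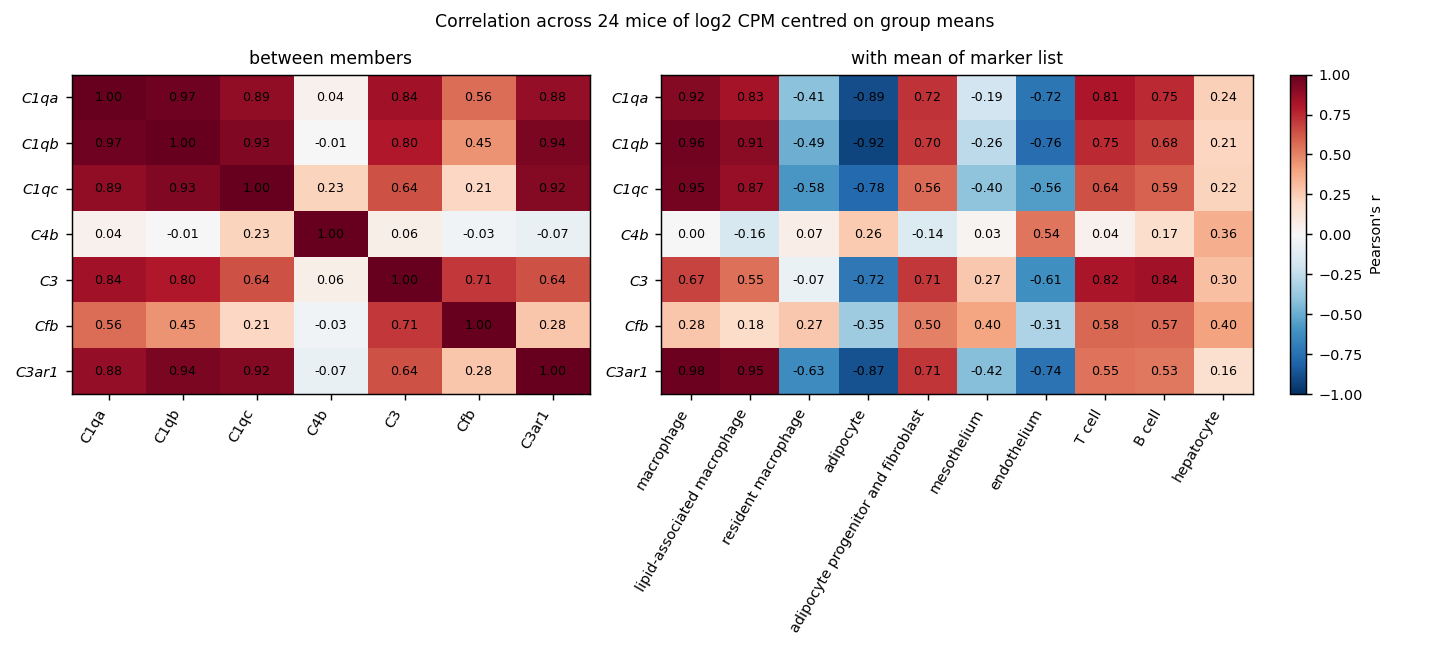
Pearson's r across 24 mice of log2 CPM centred on group means, between the complement genes (left) and between each gene and the mean of each cell type marker list (right), with red positive and blue negative. Over all groups together, C1qa, C1qb, C1qc and C3ar1 form a block with macrophage markers that is opposite to adipocyte markers, and C4b is near 0 with all members.

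The same measure was compared with the mean of each of 10 lists of cell type markers, 70 relations in all. C3ar1 was closest to 8 macrophage markers (r = 0.983, adjusted p = 6.36e-05, rho = 0.964, adjusted p = 7.78e-05, permutation tests), and r was 0.969 without the 2 farthest libraries. C1qa, C1qb and C1qc had r of 0.918, 0.962 and 0.954 with that list. With 6 markers of resident macrophages the sign was negative, with r of -0.412, -0.486 and -0.584 for C1qa, C1qb and C1qc and -0.628 for C3ar1, and the relations of C1qc (adjusted p = 0.0218, rho = -0.523, adjusted p = 0.047, and r = -0.518 without the 2 farthest) and C3ar1 (adjusted p = 0.012, rho = -0.666, adjusted p = 0.00674, and r = -0.493 without) passed in the permutation tests. The sign did not hold throughout. Within HFD-fed Lama4 AKO mice r with the resident list was 0.438, 0.0388 and 0.823 for C1qa, C1qb and C1qc, and -0.76 for C3ar1. Folr2, a gene of that list, was 53.7 CPM in chow-fed Lama4 fl/fl replicate 1 and 295.3 in HFD-fed Lama4 fl/fl replicate 1. C1qb was 246.6 and 2620.7 CPM there, and both genes had their lowest and highest levels in these libraries. Folr2 was picked from the list, and of its other markers only Timd4, at low levels, also rose (2.6 and 4.5 CPM). The rest were lower in the HFD-fed library. Lyve1 was 191.9 and 32.9 CPM, Cd163 75.6 and 31.1, Cbr2 125.2 and 76.4 and F13a1 170.4 and 136.5. With 8 adipocyte markers r was -0.89 for C1qa, -0.919 for C1qb, -0.781 for C1qc and -0.874 for C3ar1. Within HFD-fed Lama4 AKO mice alone these values were -0.237, -0.596, 0.327 and -0.737, so the sign for C1qc was reversed. With the 8 macrophage markers they were 0.522, 0.695, 0.289 and 0.549 in that group. In chow-fed Lama4 fl/fl replicate 1, which had the lowest C1q and C3ar1 levels, the macrophage markers summed to 1411.1 CPM and the adipocyte markers to 46019.3, the lowest and the highest of all libraries. In this bulk tissue, fewer cells of a type and less RNA per cell cannot be told apart.

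C3 was closest to the B cell list (r = 0.843, adjusted p = 6.36e-05, rho = 0.812, adjusted p = 0.000175, and 0.787 without the 2 farthest) and the T cell list (r = 0.817, adjusted p = 0.00014, rho = 0.837, adjusted p = 0.000127, and 0.77 without). The B cell list was low, summed at 1.8 to 67.4 CPM over all libraries. C1qa, C1qb, C1qc and C3ar1 also passed with both lists. Their r was 0.748, 0.683, 0.586 and 0.528 with the B cell list and 0.805, 0.749, 0.636 and 0.545 with the T cell list. Within HFD-fed Lama4 AKO mice r of C3ar1 was -0.251 and -0.233. By Pearson's r C3 also passed with the progenitor and fibroblast list (0.708) and the macrophage list (0.673). It passed with the lipid-associated macrophage list too (0.547), though not by Spearman rho (adjusted p = 0.0625). With that list r was 0.832, 0.906, 0.869 and 0.955 for C1qa, C1qb, C1qc and C3ar1. Within HFD-fed Lama4 AKO mice it was -0.189, 0.149, -0.586 and 0.653. With adipocyte (-0.717) and endothelial (-0.615) markers r of C3 was negative and passed. C4b passed with the 5 endothelial markers alone (r = 0.535, adjusted p = 0.0277, rho = 0.525, adjusted p = 0.0378, and 0.494 without). Cfb passed with the T cell list (r = 0.577, adjusted p = 0.0142, rho = 0.611, adjusted p = 0.0119, and 0.461 without) and the B cell list (r = 0.569, adjusted p = 0.0151, rho = 0.561, adjusted p = 0.0216, and 0.462 without). Within chow-fed Lama4 AKO mice, however, r of Cfb was -0.17 with the T cell list and -0.649 with the B cell list. The hepatocyte list, summed at 3.61 to 554.5 CPM, passed with no member. Adipocyte markers summed to 8660.8 CPM or more in every library and none was at 0, so the labelled tissue carried its defining markers.

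Genes among those with the most similar centred levels were named as a description. For C1qb they were Fcer1g, Lst1, Tmem106a and Vav1 (r of 0.98 to 0.981), and for C3ar1 Slc37a2, Pianp, Nckap1l, Lcp1 and Aph1c (0.978 to 0.991). For C1qa they were Ptpn18, C1qb, Zc3h12d, Ebi3 and Cxcl16 (0.97 to 0.973), and for C1qc Cd83, Ptpn6, Sirpa, a gene listed only as ENSMUSG00000029333 and Arhgap9 (0.96 to 0.97). Many of these, such as the Fc receptor chain Fcer1g and the actin-bundling protein Lcp1, are known from myeloid cells. C3 was nearest to Gpr55, C1ra, Blk, Arhgap15 and Jchain (0.918 to 0.944), among which C1ra is the classical pathway protease C1r and Blk a kinase of B cells. Cfb was nearest to Acsf2, Btrc, Cpq, Acot9 and Gdf9 (0.847 to 0.885). C4b had no gene above 0.764, the value for Ggt5, and Fam172a, Sigirr and R3hcc1l were also near it (0.709 to 0.741).

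The rest of the pathway was taken from a list of 53 other complement genes, of which 45 had counts and 40 were tested. In Lama4 AKO mice 3 of the 40 were called lower on HFD and none higher, and 2.83% of all genes were called lower. They were C6 and C7, of the membrane attack complex, and Clu, the inhibitor clusterin. C6 was 12.4 to 83.1 CPM with a median of 51.7 on chow and 4.79 to 17.3 with a median of 10.5 on HFD. It fell by 2.19 on the log2 scale (adjusted p = 0.0153). The groups overlapped because chow-fed replicate 5, one of the libraries set aside, was at the chow group's lowest level. C7 was 1.34 to 6.05 CPM on chow and 0.235 to 1.41 on HFD, low levels, and fell by 2.58 (adjusted p = 0.0172). Clu was 48.9 to 136 CPM on chow and 22.9 to 65.4 on HFD, and fell by 1.13 (adjusted p = 0.019). All 3 were also called in the 19 libraries, at -2.38, -2.74 and -1.25. C7 was also called in the diet average (-1.88, adjusted p = 0.0199), and with all 24 libraries no other gene of the list was called in any comparison.

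Cfd, factor D of the alternative pathway, was 294.7 to 3368.1 CPM with a median of 1218.7 in chow-fed Lama4 AKO mice and 107.1 to 655 with a median of 261 in HFD-fed ones. It passed an adjusted p of 0.05 but not the call criteria (-2.19, adjusted p = 0.0273). Markers of adipocytes, the cells best known for Cfd, had a median log2 difference of -1.09 in that comparison and all 8 were negative. Their part in the difference was not tested. Cfp (properdin), which stabilises the convertase, did not pass (0.53, adjusted p = 0.191).

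**Figure D5:**
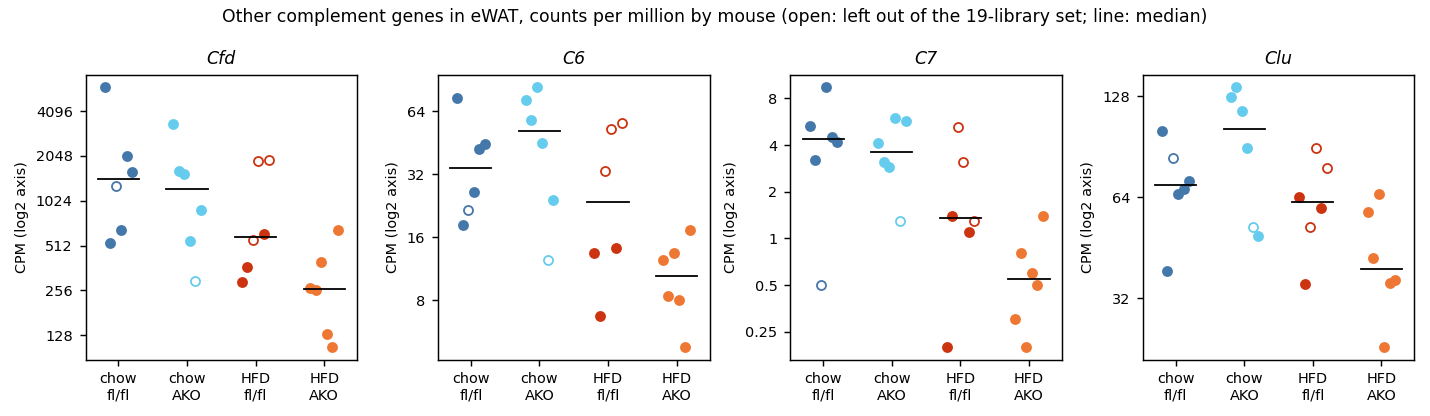
CPM (y axis, log2 scale) of Cfd, C6, C7 and Clu by group (x axis), 1 point per mouse with the median of 6 as a line and open points for libraries left out of the 19-library set. All 4 genes have their lowest median in HFD-fed Lama4 AKO mice.

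Among 11 receptors, 10 had positive differences for HFD in Lama4 AKO mice with a median of 0.89, against 0 over all genes and 0.61 over the 7 members. An adjusted p of at most 0.05, which 22.1% of all genes passed, was reached by 4 of them: Itgax (1.59, adjusted p = 0.0389) and Itgb2 (1.54, adjusted p = 0.0495), the chains of complement receptor 4, C5ar2, a receptor of C5a (1.49, adjusted p = 0.0355), and Lrp1, a scavenger receptor that binds C1q (0.89, adjusted p = 0.0295). In Lama4 fl/fl mice no other complement gene passed, and the receptors' median was 0.08. Between genotypes on HFD no complement gene was called, but Cd93 (353.2 to 396.1 CPM in Lama4 AKO and 171.3 to 350.6 in Lama4 fl/fl mice) and Lrp1 (559.2 to 797 and 232.4 to 492.8) had groups that did not overlap, which is 2 of 40 against 0.533% of all genes. In edgeR their adjusted p was 0.307 and 0.291. The list of 6 lipid-associated macrophage markers had a median of 1.67 for HFD in Lama4 AKO mice, and their part in the receptors' values was not tested.

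Initiation genes and inhibitors gave fewer differences. Of the 8 initiation genes tested, 5 were positive for HFD in Lama4 AKO mice with a median of 0.24, and none passed, with C1ra at 0.81 (adjusted p = 0.0668) and C2 at -0.45 (adjusted p = 0.255). Of the 14 inhibitors, Clu alone passed, and the median was -0.11. Cd59a, which blocks the membrane attack complex, did not pass (-0.79, adjusted p = 0.0526). Averaged over genotypes, the 4 genes with the lowest p of each group were as follows. Among terminal components C7 was at -1.88, C6 at -1.28 (adjusted p = 0.0305), Hc, the gene of C5, at 1.15 (adjusted p = 0.123) and C8g at -0.51 (adjusted p = 0.163). Among receptors C1qbp was at -0.36 (adjusted p = 0.0748), C5ar2 at 0.86 (adjusted p = 0.0822), Lrp1 at 0.48 (adjusted p = 0.0837) and Itgam, a chain of complement receptor 3, at 0.75 (adjusted p = 0.0892), so none passed. Of the inhibitors Clu passed at -0.66 (adjusted p = 0.0404), and Cd59a (-0.48), Cfi (-1.04) and Vtn (-0.39) did not, with adjusted p of 0.102 to 0.168. The initiation genes C1ra (0.51), Fcna (-0.4), C4a (-0.66) and C2 (-0.39) had adjusted p of 0.109 to 0.174. In the alternative pathway Cfd passed at -1.65 (adjusted p = 0.0306) and Cfp was at 0.58 (adjusted p = 0.0656). With the 19 libraries, 36 genes of the list were tested. In Lama4 fl/fl mice 3 were called on HFD, with C6 (-1.89, adjusted p = 0.00704) and C7 (-2.64, adjusted p = 0.0022) lower and Cfp (1.3, adjusted p = 0.00236) higher, where 11.8% of all genes were called. In Lama4 AKO mice 8 were called, where 15.7% of all genes were. Besides C6, C7 and Clu, Cfd was lower (-2.4), and C1ra (0.89), C5ar2 (1.94), Itgax (2.07) and Lrp1 (1.19) were higher. In the diet average 11 were called, 7 higher and 4 lower, where 21.4% of all genes were. The 7 were C1ra, Cfp and the receptors C5ar2, Cr2, Itgam, Itgax and Lrp1, and the 4 were Cfd, C6, C7 and Cd59a. No gene of the list was called between genotypes or in the interaction.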

How the data were processed

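RNA from eWAT was sequenced as QuantSeq 3′ libraries. The authors mapped and counted reads on GRCm38 with the Lexogen QuantSeq pipeline and deposited raw counts per gene and library. A second deposited table holds a normalized signal, the counts divided by 1 size factor per library (DESeq2 1.30 and R 4.0.3 are named in the submitters' processing notes), used for symbols and positions only. Symbols came from that table for 14067 genes and from GENCODE for 2616. Upstream sequences are from RefSeq.

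In R 4.3.3, genes were kept that reached 1 CPM in 3 or more libraries (15020 of 16730), scaled by TMM, and fitted with edgeR 4.0.16 quasi-likelihood models with 1 coefficient per group over all 24 libraries. P-values were adjusted over all genes by the method of Benjamini and Hochberg. The models were tested on simulated counts, drawn independently for each gene with the same dispersion for all. That setting lacks the shared variation of these libraries, so it does not show how the tests behave for genes that vary together. The 60 pairs of libraries within groups differed beyond counting error (chi-square per degree of freedom of at least 5.22), so none was counted as a duplicate. Each library was taken as 1 mouse. Correlations used log2 CPM with a prior count of 2.

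The members and lists were chosen with earlier results of these data known. Genes named are the 7 members, Lama4, other complement genes called in any comparison or among the 4 lowest p of their sub-list in the diet average, and genes among the 5 closest to each member, a few of which are not reported here. Cd93, Itgax, Itgb2, Folr2 and the other resident macrophage markers were named after their values were seen. Alternatives were 19 libraries, limma-voom (limma 3.58.1), DESeq2 1.42.0, RLE size factors, no filter, a fit of the compared groups alone, a block for replicate number, adjusted p-values and each library left out in turn. The 19 libraries with limma-voom were added after seeing the data.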

Additional observations from a re-analysis of the deposited data

Results flagged for a closer look

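Of 28 sets of 6 values, 7 genes in 4 groups, 3 had a lowest library whose gap to the next was over 0.625 of the whole range, Dixon's limit for 6 samples. About 1 in 20 sets passes this limit by chance. All 3 were chow-fed Lama4 fl/fl replicate 1, with a gap of 0.632 of the range for C1qb (246.6 CPM), 0.773 for C1qc (182.3 CPM) and 0.91 for C3ar1 (67 CPM). The genes vary together, so these are not independent. The same library had the lowest score on the first principal component, -91.8. Without it the difference of HFD against chow in Lama4 fl/fl mice was -0.45 for C1qc and -0.22 for C3ar1.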

How the results depend on the processing

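With limma-voom, DESeq2, size factors of RLE, no low-count filter or only the groups compared (not fitted for the interaction and the diet average, which need 4 groups), no member was called in any comparison, and leaving out each library in turn gave 0 to 0 calls in all 6. In the interaction the 19 libraries gave 1 call (Cfb), with edgeR and with limma-voom, and in the diet average 1 (C1qa), with each. An adjusted p of at most 0.05 gave 1 in the diet average (C4b). The cause was not tested.

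Signs of uncalled differences changed in the 19 libraries, with edgeR and limma-voom in turn: in Lama4 fl/fl mice C1qc on HFD (main value -0.25) was 0.15 and 0.34; between genotypes on HFD C1qa (0.18) was -0.42 and -0.42, C1qb (0.19) -0.41 and -0.4, C3 (0.12) -0.33 and -0.32, and C3ar1 (0.38) -0.16 and -0.14; on chow C4b (-0.03) was 0.07 and 0.09; in the interaction C1qa (0.68) was -0.13 and -0.11 and C3 (0.12) -0.44 and -0.41. Cfb in the diet average was 0 in edgeR. With limma-voom on all libraries C3ar1 in Lama4 fl/fl mice was -0.03. The pairs of members that passed were 12 with RLE size factors or a prior count of 0.5 and 9 with the 19 libraries.

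Replicate numbers did not pair libraries: same-numbered libraries of different groups had r of -0.534 to 0.714 (median 0.00112), and 5 of 24 were closest to their own number. With the replicate number as a block no member was called, C4b between genotypes on chow was 0 and C3 there -0.01. As each library was left out, differences whose sign changed lay in these ranges: in Lama4 fl/fl mice on HFD C1qa -0.14 to 0.49, C1qb -0.04 to 0.44, Cfb -0.07 to 0.3 and C3ar1 -0.24 to 0.19; between genotypes on chow C4b -0.12 to 0.04 and C3 -0.15 to 0.15; on HFD C1qa -0.01 to 0.49, C1qb 0 to 0.46, C4b 0 to 0.23 and C3 -0.02 to 0.36; and in the interaction C3 -0.03 to 0.36.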
